A study of Mus musculus with 12 samples.

Results

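Lipid-associated macrophages are tissue macrophages that take up and break down lipid from dying cells and lipid-rich debris. They are recognised by a group of genes for secreted, membrane and lysosomal proteins and for proteins that handle fatty acids, and the receptor Trem2 with its adaptor Tyrobp is known to drive much of this programme. Most of the genes are not restricted to macrophages: fibroblasts are known to make Spp1, Lgals3, Cd9, Cd63, Fabp5 and Lpl, and Gpnmb is also made by melanocytes, osteoblasts and other cells, whereas Itgax is an integrin of dendritic cells and some macrophages that fibroblasts are not known to make. The 8 genes Gpnmb, Spp1, Lgals3, Cd9, Cd63, Fabp5, Itgax and Lpl were chosen by name, and each matched 1 of the 55573 gene rows of the count table. All 8 passed the filter on low counts that 19174 genes passed.

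The RNA came from mouse embryonic fibroblasts (MEFs) of the C57BL/6 background, made at E13.5, in which doxycycline switches on Oct4, Sox2, Klf4 and Myc, together called OSKM. Each of the 3 clones came from 1 embryo and gave 4 libraries after 72 h in medium for pluripotent cells: uninduced cells (MEF), uninduced cells with 2 µM vitamin B12 (MEF+B12), cells given doxycycline at 1 µg/ml (OSKM) and cells given both (OSKM+B12). The inducible transgene was therefore present in every library, and doxycycline only in the 2 induced groups, so that the drug and the factors cannot be told apart. The design asks what induction does, what added B12 does, and whether B12 acts differently in induced cells.

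Total counts ran from 56971244 to 79236795 a library. Pou5f1, which encodes Oct4, lay between 0 and 0.468 CPM (counts per 1e6, with library sizes scaled by TMM factors) in the uninduced libraries and between 2.33 and 20.7 CPM in the induced ones, and Sox2 between 0.378 and 0.838 and between 2.18 and 17.8 CPM. Klf4 lay between 118 and 143 CPM in the uninduced and between 108 and 122 CPM in the induced libraries, and Myc between 16.4 and 23.2 and between 20.04 and 53.4 CPM. In OSKM against MEF, Pou5f1 and Sox2 were called (adjusted p = 5.95e-07 and 0.00287), and Klf4 (-0.16 on the log2 scale) and Myc (0.94) were not (adjusted p = 0.163 and 0.159). The 12 fibroblast markers, led by the collagens Col1a1, Col3a1 and Col1a2, summed to between 88427 and 143095 CPM. The cultures also held RNA of the 14 macrophage-defining genes, among them Lyz2, Csf1r, Adgre1 and the C1q subunits, which summed to between 1476 and 3633 CPM. In such bulk samples fewer cells of a type and less RNA per cell cannot be told apart. Of the 8 genes of the dendritic cell list, Siglech and Cd209a had no counts and Flt3, Xcr1 and Clec9a had 2, 6 and 2 counts over the 12 libraries, while Zbtb46, Batf3 and Ccr7 had 1491, 394 and 234 and passed the filter. Of the 8 adipocyte genes Cidec and Lep had no counts and Adipoq had 13, while Lipe had 9336 and Slc2a4 had 632. Of the 6 melanocyte genes Tyr had 3 counts and Tyrp1 had 12, while Pmel had 1155 and Mlana had 641. Of the 8 osteoblast genes Dmp1 had 37 counts, Sp7 82, Bglap 96 and Bglap2 161, while Runx2 had 12557, Ibsp 1803, Phex 1180 and Alpl 776.

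The region before the start site is shown for Spp1, the most abundant marker per length, and for Itgax, the least abundant. RefSeq sequences of 250 bases before a start (GRCm38.p6) matched 6 of the 8 genes; Itgax is cut where the annotated gene begins. Capitals mark GGAAGT or its reverse complement, extended to GAGGAAGT, a word bound by PU.1 (Spi1), where it is present, and TGANTCA, the AP-1 word.
Spp1, chr5:104434861-104435110, plus strand: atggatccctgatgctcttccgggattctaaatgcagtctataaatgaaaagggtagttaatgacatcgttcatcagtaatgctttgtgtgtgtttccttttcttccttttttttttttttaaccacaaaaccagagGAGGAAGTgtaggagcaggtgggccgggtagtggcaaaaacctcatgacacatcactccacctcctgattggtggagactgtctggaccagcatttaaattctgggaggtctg
Itgax, chr7:128129300-128129546, plus strand: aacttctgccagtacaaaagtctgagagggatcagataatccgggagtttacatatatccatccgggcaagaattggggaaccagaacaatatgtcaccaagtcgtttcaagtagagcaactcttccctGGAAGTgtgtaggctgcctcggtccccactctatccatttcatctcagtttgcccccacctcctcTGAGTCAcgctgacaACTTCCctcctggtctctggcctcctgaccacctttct
The Spp1 window shown, the first of 2 for this gene, held GAGGAAGT once, a word found on either strand in 2.45% of 32536 different windows of this length, and the GGAAGT inside it is found in 19.8%. The Itgax window held GGAAGT at 2 places and TGANTCA once, the latter found in 6.73% of windows. The other Spp1 window and those of Gpnmb and Lgals3 held none of the words searched, which also included CACGTG (6.04% of windows) and CATGTG (12.3%). Cd63 held GGAAGT once and Cd9 held CATGTG once. These matches describe letters and are not evidence of binding.

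Per kilobase of exon, Spp1 was the most abundant of the 8 genes, at a mean of 453 CPM per kb over the 12 libraries, which is above 99.5% of the genes tested. Cd63 followed at 253, Lgals3 at 156 and Cd9 at 60.8 CPM per kb. The length joined all annotated exons of a gene, 1648 bases for Spp1 and 3682 for Cd63, so this order depends on the annotation. Without division by length the mean of Cd63 lay above that of Spp1 in every group, from 1002 against 854 CPM in MEF to 860 against 610 in OSKM+B12. Gpnmb, Lpl and Fabp5 lay close together at 44.4, 43.9 and 43.7 CPM per kb, and the ranges of these 3 genes over the libraries overlapped. Itgax stood far below, at 0.0375 CPM per kb. Among the macrophage-defining genes only Lyz2, at 898 CPM per kb, lay above Spp1, while C1qb lay at 119 and Csf1r at 21.3. Of the exonic sequence of Spp1 14.3% recurs in the row Gm42793, of that of Itgax 10.7% in Itgad, and of that of Lyz2 32.8% in other genes. Part of their reads may therefore have been split or dropped.

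**Figure D1:**
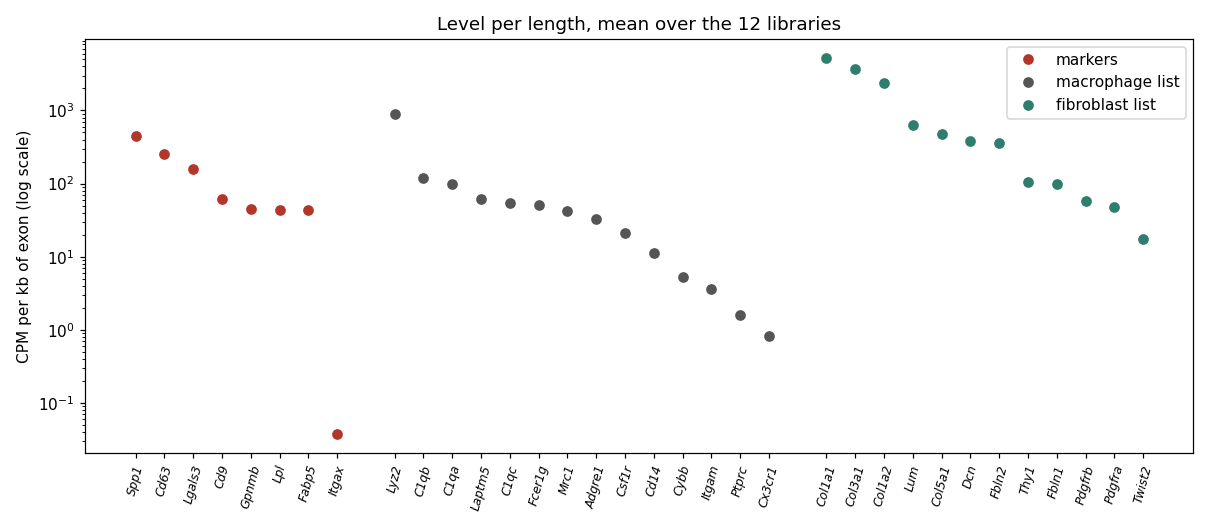
Mean level over the 12 libraries in CPM per kb of exon, on a log axis, of the 8 markers, 14 macrophage-defining genes and 12 fibroblast genes, each point 1 gene. Spp1 (453) and Cd63 (253) lie above every macrophage-defining gene but Lyz2 (898), and Itgax (0.0375) lies below every gene of the other 2 lists.

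Spp1 and Gpnmb encode glycoproteins of the cell surroundings and of membranes, and both differed widely between clones. Spp1 (ENSMUSG00000029304; chromosome 5, 104435118 to 104441050, plus strand, GRCm38) encodes osteopontin, a secreted ligand of integrins and of Cd44. In clones 1, 2 and 3 it measured 770.2, 1048 and 746 CPM in MEF, 737, 1153 and 807 in MEF+B12 and 499.8, 634 and 736 in OSKM. The OSKM+B12 libraries measured 416, 659 and 754 CPM. The libraries of OSKM lay below all of MEF, at the nearest by 736 against 746 CPM, both in clone 3, while OSKM+B12 overlapped MEF+B12. Gpnmb (ENSMUSG00000029816; chromosome 6, 49036546 to 49070929, plus strand) encodes a transmembrane glycoprotein of lysosomes and the cell surface. It measured 213, 466 and 297 CPM in MEF, 208, 552 and 375 in MEF+B12 and 145, 249.6 and 268 in OSKM. The OSKM+B12 libraries measured 108, 282 and 310.5 CPM. Clone 1 was lowest in every group, and the highest library exceeded the lowest 5.13-fold, against 2.77-fold for Spp1.

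Lgals3 (ENSMUSG00000050335; chromosome 14, 47367751 to 47386160, plus strand) encodes galectin-3, a lectin that binds galactose-containing glycans and marks damaged lysosomes. It measured 308, 306 and 268 CPM in MEF, 329, 433 and 344 in MEF+B12 and 195, 229 and 256 in OSKM. The OSKM+B12 libraries measured 209, 279 and 326 CPM. Both induced groups lay below their uninduced counterparts without overlap.

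The tetraspanins Cd9 and Cd63 organise other proteins in membranes, Cd9 mostly at the cell surface and Cd63 in late endosomes, lysosomes and exosomes. Cd9 (ENSMUSG00000030342; chromosome 6, 125460266 to 125494791, minus strand) stayed between 92.0 and 162 CPM, and clone 1 was the lowest in every group. Cd63 (ENSMUSG00000025351; chromosome 10, 128900989 to 128912822, plus strand) measured 711, 1193 and 1101 CPM in MEF, 732, 1134 and 1060.3 in MEF+B12, 624, 957 and 1074 for the OSKM libraries, and 608, 911 and 1061 with both. Clone 1 was again the lowest in each group. Of their exonic sequence 20.1% for Cd9 and 15.9% for Cd63 recurs in other annotated genes, 13.4% of Cd63 in the row Cd63-ps, so that part of their reads may have been split or dropped.

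Of the lipid-handling genes, Fabp5 (ENSMUSG00000027533; chromosome 3, 10012548 to 10016607, plus strand) encodes a cytosolic carrier of fatty acids. It measured 136, 141 and 119 CPM in MEF, 181, 244 and 187 in MEF+B12 and 101, 125 and 118 in OSKM. The OSKM+B12 libraries measured 145, 193 and 183 CPM. Each group with B12 lay above its counterpart without overlap. Lpl (ENSMUSG00000015568; chromosome 8, 68880491 to 68907448, plus strand) encodes lipoprotein lipase, which releases fatty acids from circulating lipoproteins. It measured 458, 658 and 336 CPM in MEF, 542, 657 and 406 in MEF+B12 and 365, 464 and 354 in OSKM. The OSKM+B12 libraries measured 383, 515 and 382 CPM. Clone 2 was the highest in each group, and all groups overlapped.

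Itgax (ENSMUSG00000030789; chromosome 7, 128129547 to 128150657, plus strand) encodes the integrin subunit CD11c. It had between 3 and 20 counts a library, that is between 0.0517 and 0.297 CPM, and no ordering of the groups could be read at this depth. Its partner subunit Itgb2 lay between 28.0 and 56.2 CPM and the alternative subunit Itgam between 8.86 and 29.9 CPM, although 68.3% of the exonic sequence of Itgam recurs in other genes.

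**Figure D2:**
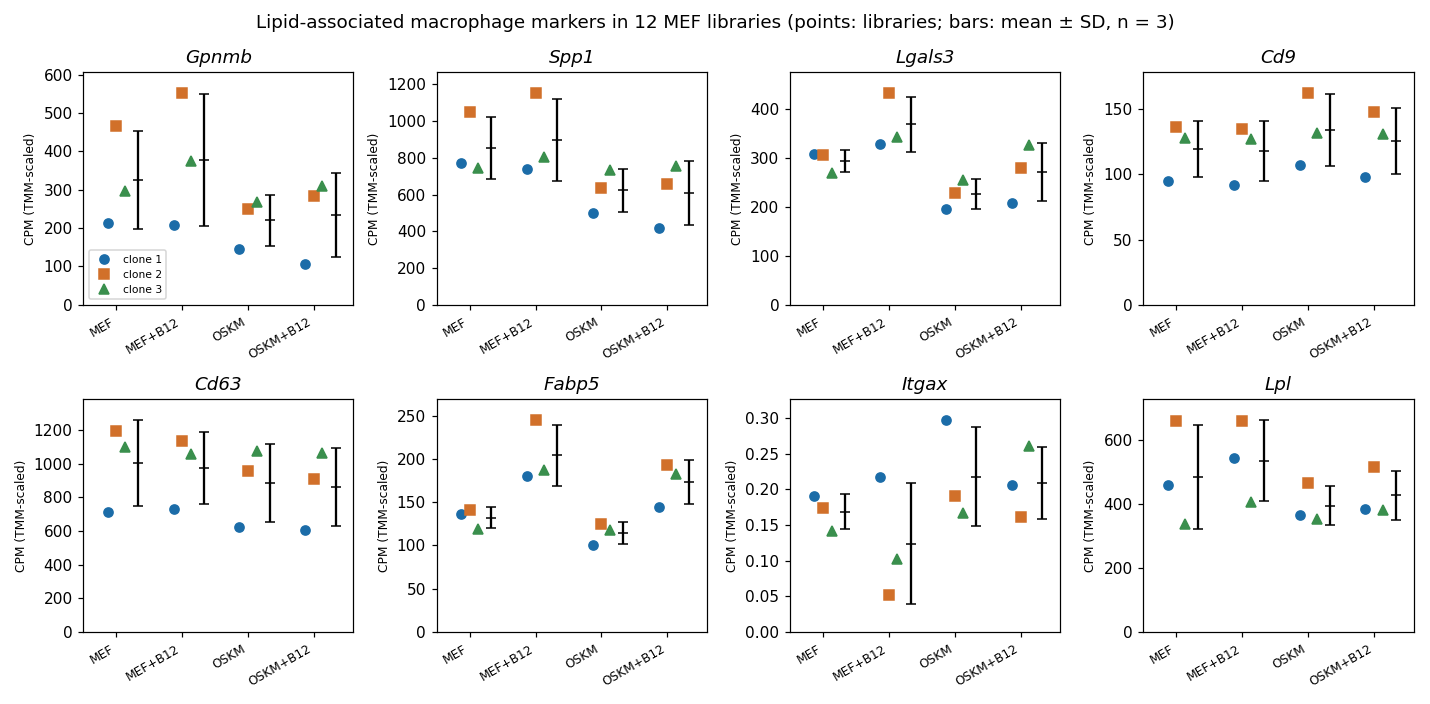
CPM (TMM-scaled) of each marker in the 12 libraries by group, with clones as coloured points and the mean ± SD of n = 3 beside them. Fabp5 is higher in both groups with B12, which edgeR called. Spp1 and Lgals3 are lower in OSKM than in MEF, which edgeR did not call (adjusted p = 0.181 and 0.180). Itgax stays at or below 0.297 CPM.

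Added B12 raised 1 of the 8 markers, Fabp5. Fabp5 rose by 0.61 ± 0.09 on the log2 scale in uninduced cells (edgeR, adjusted p = 0.00988) and by 0.60 ± 0.09 in induced cells (adjusted p = 0.0138). Averaged over both it rose by 0.60 ± 0.06 (adjusted p = 0.000444), which is 1.52-fold. Values after ± are SEs from the fit of all 12 libraries of 3 clones, not the spread of the clone differences. It was higher in 6 of 6 pairs of libraries of the same clone. Calls over all genes were 1.38% in MEF, 1.06% in OSKM and 3.84% for the average, against 1 of 8 markers in each. Without clone 2 the average was 0.55 with an adjusted p of 0.0641, and without the clone term, where the averaged change kept an adjusted p of 0.0352, neither change within MEF or OSKM was called (adjusted p = 0.425 and 0.585). Without clone 2 or clone 3 the changes within MEF and OSKM were not called either, with adjusted p of 0.448 and 0.424 without clone 2 and 0.0622 and 0.0862 without clone 3.

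Among the other markers Lgals3 was higher with B12 in 6 of 6 pairs, by 0.28 ± 0.09 on average, without passing edgeR's test (adjusted p = 0.149). DESeq2 called it (adjusted p = 0.0272), together with Fabp5, where 4.9% of all genes were called, and over 10 alternatives its adjusted p ran from 0.0242 to 0.640, with 2 calls. Lpl differed by 0.14 ± 0.07 (adjusted p = 0.398) and Gpnmb by 0.09 ± 0.12 (adjusted p = 0.779). Spp1 (0.00 ± 0.11), Cd63 (-0.03 ± 0.05) and Cd9 (-0.06 ± 0.03) showed averaged differences close to 0. Of the 6 pairs Spp1 was lower with B12 in 2, Cd63 in 5 and Cd9 in all 6, where Cd9 differed by between -0.138 and -0.0096. Cd9 did not pass edgeR's test (adjusted p = 0.459). The median over the 8 markers was 0.05, against -0.01 over all genes tested.

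The macrophage-defining genes rose with B12 alongside Fabp5: 12 of 14 were called higher on average, with a list median of 0.54, and none was called lower. Cx3cr1 (-0.45) and Cybb (0.06) were not called. Over all genes 3.84% were called for this average. The list was chosen with earlier results of these data known, so the count describes the list and is not an independent test. Their summed level rose in all 6 pairs, by between 0.23 and 0.75 on the log2 scale. Mrc1, the mannose receptor, rose by 0.86 ± 0.08 and Lyz2, lysozyme, by 0.43 ± 0.08. None of the 12 fibroblast genes was called by edgeR, with 5 at an unadjusted p under 0.05 and all 12 lower, and the list median was -0.11. Relative to the summed macrophage genes, Fabp5 differed with B12 by 0.16, 0.03 and 0.05 in clones 1, 2 and 3 on average. These differences of Fabp5 were 0.02, 0.18 and 0.08 within MEF and 0.30, -0.12 and 0.02 within OSKM. On average Lgals3 differed by -0.21, -0.29 and -0.24, Spp1 by -0.47, -0.58 and -0.52 and Cd63 by -0.30, -0.75 and -0.63. Lyz2 alone made up 1062 of the 2057 CPM of the macrophage sum in the mean of MEF. The part of the macrophage RNA in the rise of Fabp5 was not tested.

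**Figure D3:**
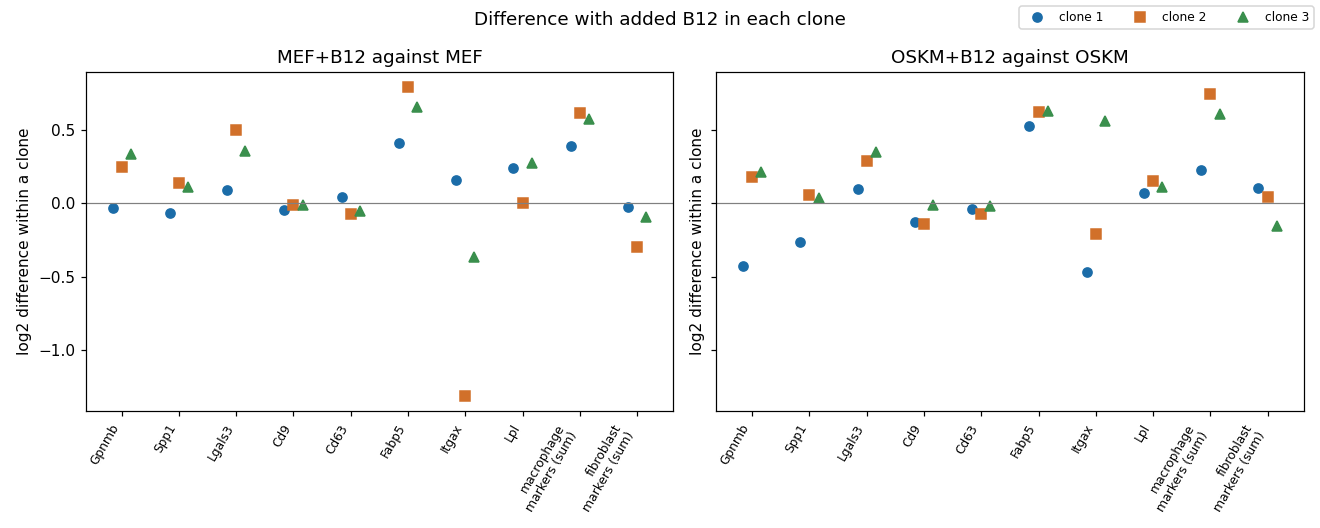
log2 difference between the libraries with and without B12 of the same clone, for each marker and for the summed macrophage and fibroblast genes, in uninduced (left) and induced (right) cells. Fabp5 lies above 0 in all 6 pairs, as does the macrophage sum (0.23 to 0.75), while Cd9 and Cd63 stay near 0.

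Reads of Fabp5 can be shared with near-identical copies, since 9.27% of its exonic sequence recurs elsewhere. The copies Gm6166 and Gm14328, with 26820 and 4045 counts over all libraries, rose by 0.59 (adjusted p = 0.000156) and 0.66 (adjusted p = 0.00266) with B12. How reads were divided among the 3 rows cannot be seen in the counts.

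Of the 24 other genes of the lipid-associated programme, 7 rose and 3 fell with B12 on average, the list median being 0.24. For this average, 3.84% of all genes were called. That share also stands beside the counts of regulators and partners below. Among the called genes the largest rises were in Cd36, a fatty acid and lipoprotein receptor (0.87 ± 0.10), Cd68, a lysosomal glycoprotein of phagocytes (0.67 ± 0.10), and Trem2 (0.52 ± 0.06). The falls were in Abcg1, a cholesterol exporter (-0.49 ± 0.10), Mmp12, macrophage elastase (-0.34 ± 0.07), and Apoe, the apolipoprotein (-0.27 ± 0.06). Among the 10 regulators 2 rose, Tfec (1.08 ± 0.16), a relative of Mitf, and Spi1 (0.66 ± 0.09), which encodes the myeloid factor PU.1. Of 36 tested partners of the markers 6 rose and none fell. These were the integrin subunits Itga4 (0.78 ± 0.07), Itgb2 (0.54 ± 0.08) and Itgam (0.51 ± 0.10), and the leukocyte tetraspanins Cd37 (0.66 ± 0.09) and Cd53 (0.53 ± 0.08). The last was the fatty acid transporter Slc27a1 (0.37 ± 0.08). Itgam is also on the macrophage-defining list and was counted there too.

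For each marker, its most abundant partner per length did not pass the test with B12. Itgb1, an integrin subunit of osteopontin receptors, lay at 214 CPM per kb, and Lgals3bp, a galectin-3 ligand, at 187. Timp1, which binds Cd63, lay at 183 and Angptl4, an inhibitor of Lpl, at 87.4 CPM per kb. Crabp2, a retinoic acid carrier of the Fabp5 family, lay at 44.5, Adam10, a protease that can shed Gpnmb, at 40.4, and Icam1, a ligand of Itgax and its relatives, at 20.97 CPM per kb. Gpihbp1, which holds Lpl on capillary endothelium, and the cofactor Apoc2 had no counts in any library.

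No marker was called on induction of OSKM by edgeR, without or with B12, although 7 and 6 of the 8 had an unadjusted p under 0.05, and DESeq2 called 1 (Lgals3) and 2 (Gpnmb and Lgals3). Over all genes edgeR called 0.073% and 0.104% and DESeq2 2.57% and 2.19%, with 3641 and 2854 of 19174 at an unadjusted p under 0.05 in edgeR. Gpnmb was lower in induced cells by 0.54 ± 0.17 on the log2 scale without B12 and by 0.72 ± 0.17 with B12 (adjusted p = 0.169 and 0.176). Spp1 was lower by 0.46 ± 0.15 and 0.57 ± 0.16 (adjusted p = 0.181 and 0.176), and Lgals3 by 0.39 ± 0.13 and 0.45 ± 0.13 (adjusted p = 0.180 and 0.181). Each of these 3 genes was lower in 6 of 6 pairs. Cd9 was higher in 6 of 6 pairs, by 0.16 ± 0.05 and 0.09 ± 0.05 (adjusted p = 0.168 and 0.442). The median over the markers was -0.23 without and -0.27 with B12, against -0.01 and 0.00 over all genes. None of the macrophage, fibroblast, programme, regulator or partner genes was called either. Without clone 3, 4 markers were called lower without B12 (Gpnmb, Spp1, Lgals3 and Lpl) and 5 with B12 (these and Cd63), where 6.87% and 5.22% of all genes were called.

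The difference on induction varied between clones. The paper reports that its MEFs from independent embryos also differed in how efficiently they reprogrammed. Pou5f1 ran from 2.86 to 19.3 CPM over the OSKM libraries and from 2.33 to 20.7 CPM over those of OSKM+B12. Any link of efficiency or of Pou5f1 with the marker differences was not tested. Spp1 was lower in induced cells by between 0.62 and 0.82 on the log2 scale in the 4 pairs of clones 1 and 2, and by 0.02 and 0.10 in clone 3. Gpnmb was lower by between 0.56 and 0.97 in clones 1 and 2 and by 0.15 and 0.27 in clone 3. Lgals3 was lower by between 0.42 and 0.66 in clones 1 and 2 and by 0.07 in both pairs of clone 3. In a test of whether the response to induction differs between clones, Spp1 passed edgeR's test (adjusted p = 0.0202) and the other 7 markers did not, with Lpl at 0.0709, Lgals3 at 0.0892 and Gpnmb at 0.189. Each clone gave 1 library per group, so this test cannot tell a clone difference from a difference between single cultures. Over all genes 2.15% were called. DESeq2 called Spp1, Lgals3, Cd63 and Lpl, with 3.13% of all genes, and over 9 alternatives Lgals3, Cd63 and Lpl were called in 4 each and Gpnmb in 3. Without clone 3 the value for Spp1 was 0.966, and without clone 2 it was 0.0551. The summed fibroblast genes differed by -0.42, -0.50 and -0.04 in clones 1, 2 and 3 without B12 and by -0.29, -0.15 and -0.11 with B12, where clone 2 lay nearer to clone 3. The summed macrophage genes differed by -0.13, -0.21 and 0.03 without and by -0.29, -0.07 and 0.06 with B12. Spp1 itself differed by -0.62, -0.72 and -0.02 without and by -0.82, -0.81 and -0.10 with B12, and the part of either list in this was not tested.

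**Figure D4:**
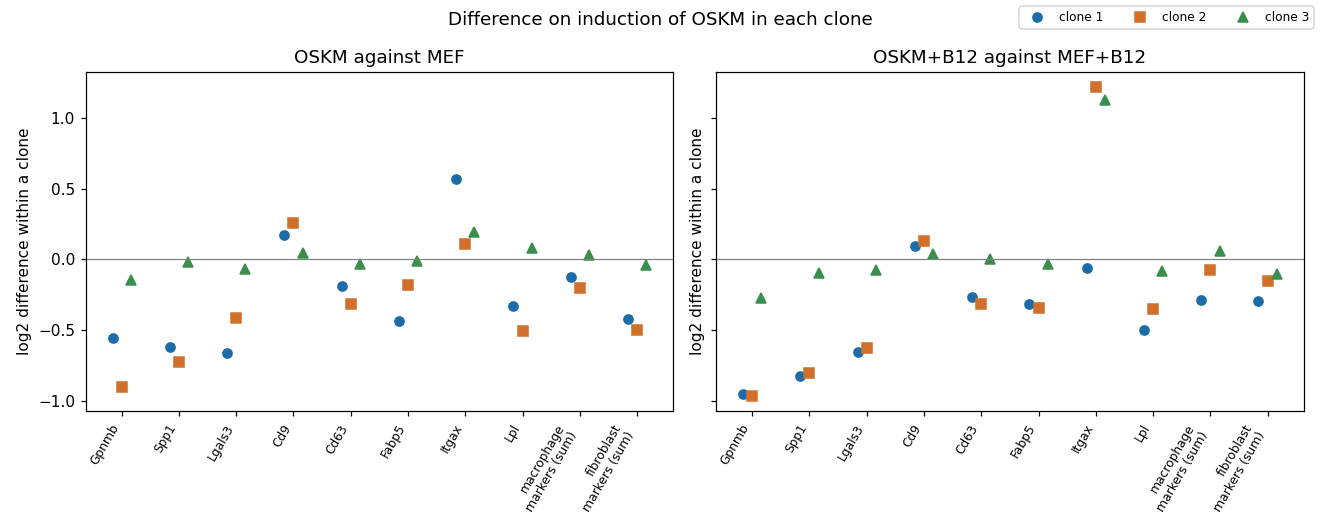
log2 difference between induced and uninduced libraries of the same clone, for each marker and for the summed macrophage and fibroblast genes, without (left) and with (right) B12. For Gpnmb, Spp1 and Lgals3, clones 1 and 2 lie between -0.42 and -0.97 and clone 3 lies nearer to 0.

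The effect of B12 was not shown to differ between induced and uninduced cells for any marker. The interaction term was called for 0 of 8 markers by edgeR, with none at an unadjusted p under 0.05, and for 0 by DESeq2. Over all genes it was called for 0% of 19174, with 273 at an unadjusted p under 0.05. For Fabp5 the difference between the 2 effects was -0.02 ± 0.13.

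Patterns over the 12 libraries were compared by the root mean square distance of log2 CPM centred on each gene's mean, among 11635 genes. Level differences between clones were not taken out, so a small distance can reflect shared clone levels and need not mean a shared response to induction or B12. Cd63 had the nearest neighbours, Tmem98, Steap3 and Npc2, at distances of 0.0425, 0.0493 and 0.0559, against 0.335 for the spread of Cd63 itself. Fabp5 was nearest to Lair1 (0.0775), Lilra6 (0.126) and Cndp2 (0.131). Spp1 was nearest to Serpina3h (0.111), Ugcg and Bdkrb2, Lgals3 to Arhgap22 (0.107), Aph1c and Apobr, Lpl to Angpt2 (0.139), Fgl2 and Tnfrsf26, and Gpnmb to Ggt5 (0.167), Cdk15 and Angpt4. Itgax had no close neighbour, the nearest being Bmp3, Aass and Samd12, from 0.314 to 0.319 against a spread of 0.502. Cd9 varied too little to be compared, its SD being 0.261.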

How the data were processed

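Poly(A) RNA was sequenced from 12 MEF cultures. Per the labels and the study's methods, the authors aligned reads with STAR (2.5.2 in the submitters' processing notes) to mm10/GRCm38, counted them in genes with featureCounts as reverse-stranded pairs, summed the flow cells of each library and deposited raw counts per gene. The markers and gene lists were chosen with earlier results of these data known. Counts were filtered with edgeR's filterByExpr, scaled by TMM and tested by edgeR 4.0.16 (R 4.3.3) with the quasi-likelihood test, with terms for group and clone, all 12 libraries in 1 fit, and Benjamini-Hochberg adjustment over 19174 genes; calls have an adjusted p under 0.05. The clone response was tested as the interaction of clone and induction. In that fit the libraries of a clone with and without B12 served as its only repeats. SEs were the unshrunk log2 fold change divided by the square root of F; a prior count of 2 went into log2 CPM. The clone term rests on shared embryos: deviations of libraries of 1 clone correlated at 0.270 to 0.687 over 18 pairs, against at most 0.170 between clones and groups. The year in the titles differs between clone 1 (2022) and clones 2 and 3 (2021), so values are given per clone. What sets clone 1 apart from the other clones cannot be told apart from that year. Gene positions and exon lengths came from GENCODE M21, and shared sequence was the share of 31-base words found in other genes. The steps were tested on simulated data in which 200 genes changed with B12 and none on induction. No response differed between simulated clones, so recovery of changes on induction or of clone responses was not tested. In the main fits p-values rest on the variation left after the terms of the fit, estimated from all 12 libraries. The level differences between the 3 clones are taken out by the clone term. All 8 markers were named in every comparison; of the programme, regulator and partner lists, called genes were named up to 6, otherwise the 3 largest rises and falls, with the most abundant partner of each marker; nearest patterns were the 3 genes at the smallest distance for markers with an SD of at least 0.3. Alternatives were DESeq2 1.42.0, DESeq2 size factors, library totals, no filter, at least 10 counts in every library, only the libraries compared, no clone term, and leaving out each clone or the OSKM library of clone 1.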

Additional observations from a re-analysis of the deposited data

Results flagged for a closer look

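The response to OSKM differed between clones for 8 of the 119 listed genes tested (edgeR, adjusted over all genes tested). These were Spp1 (adjusted p = 0.0202), the osteoclast genes Acp5 (0.0267) and Dcstamp (0.00816), the integrin subunit Itgb3 (0.0263), the fatty acid transporter Slc27a1 (0.0372), the Lpl inhibitor Angptl4 (0.0214), and the macrophage genes Adgre1 (0.0295) and Cx3cr1 (0.00504). Here too, clones and single cultures cannot be told apart. Over all genes 2.15% were called.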

How the results depend on the processing

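Of 73 alternative counts of called markers 51 stayed within 1.5 times the main count, and of 576 alternative values of single markers 513 kept their direction and side of the threshold; the cause of the other changes was not tested. DESeq2 called 1 marker in OSKM against MEF, 2 in OSKM+B12 against MEF+B12, 2 for B12 on average and 4 for the clone response, where it called 492, 420, 939 and 600 of all genes; with B12 in OSKM and in MEF it called 385 and 461 genes. With no filter 3, 4, 2 and 6 markers were called for the same 4 results, where 681, 646, 829 and 1257 of all genes were called, and 364 and 425 genes with B12 in OSKM and in MEF. With at least 10 counts in every library, 2 and 1 genes were called on induction, against 14 and 20. With only the libraries compared these were 4 and 6, those for B12 were 108 in OSKM and 845 in MEF against 204 and 264, and 2 markers were called in MEF. Library totals gave 409 genes with B12 in MEF.

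The clones pair the libraries, and the fit with no replicate block called 0 genes on induction in either pair of groups, 0 with B12 in OSKM or in MEF, and 90 for B12 on average against 736; it called 0 markers with B12 in OSKM and in MEF, and kept the call of Fabp5 on average.

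Leaving out 1 clone or the OSKM library of clone 1 gave from 0 to 4 markers in OSKM against MEF, 0 to 5 in OSKM+B12 against MEF+B12, 0 to 1 for each B12 comparison, and 0 to 5 for the clone response. Over all genes these gave 1 to 1322 and 1 to 1004 on induction, 0 to 224 with B12 in OSKM, 0 to 334 in MEF, 34 to 785 on average, and 0 to 838 for the clone response. The lowest B12 counts came without clone 2, the highest induction counts without clone 3.

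Differences near 0 changed sign, none of them called. For B12 in OSKM, Gpnmb (main -0.00) was 0.016 with library totals, 0.0026 with at least 10 counts, 0.080 with no replicate block and -0.12 to 0.19 when libraries were left out; Spp1 ranged from -0.10 to 0.042 and Itgax from -0.39 to 0.25 in those fits. For B12 in MEF, Cd9 and Cd63 were 0.0090 and 0.0039 with library totals. Leaving out libraries, Spp1 ranged from -0.042 to 0.088 for B12 on average, and for the interaction Lgals3 from -0.12 to 0.018, Cd63 from -0.039 to 0.015 and Fabp5 from -0.11 to 0.048.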

Other observations

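Genes of the osteoclast list, whose products mark multinucleated bone-resorbing cells of the macrophage lineage, were low but moved widely. Dcstamp, needed for the fusion of precursors, ran from 0.0297 to 4.24 CPM and rose with B12 by 1.64 ± 0.38 on the log2 scale on average (adjusted p = 0.0397, edgeR), higher in 3 of 3 clones. Its lowest value stood for fewer than 3 counts, so the size of this rise is uncertain. Of the 5 tested genes of the list, all 5 were higher with B12 on average and 1 was called, where 3.84% of all genes were called. Acp5, an acid phosphatase of lysosomes, ran from 6.16 to 52.6 CPM, and Atp6v0d2, a proton pump subunit, from 1.79 to 12.8 CPM. With B12 on average these 2 genes differed by 0.55 ± 0.21 and 0.59 ± 0.25, higher in 3 and 2 of 3 clones. Neither passed edgeR's test (adjusted p = 0.231 and 0.295). On induction without B12, Acp5 differed by -1.63, -0.93 and -0.25 and Atp6v0d2 by -1.61, -1.61 and -0.25 in clones 1, 2 and 3, and neither was called (adjusted p = 0.174 and 0.169).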
